A study of Rattus norvegicus with 9 samples.

Results

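The genes of the core splicing machinery and of the heterogeneous nuclear ribonucleoproteins (hnRNP) were followed in the adrenal medulla of immobilized rats. Members were the genes whose probe sets are annotated to exactly 1 symbol beginning with Srsf, Hnrnp, Snrp, Sf3a or Sf3b, or Prpf. The rule found 58 of the 14217 genes that had such a probe set. They comprised 11 SR protein genes, 17 hnRNP genes, 10 genes of Sm and snRNP proteins, 9 genes of the SF3a and SF3b complexes and 11 Prp factor genes. The brightest probe set, by mean over the arrays, stood for each gene, and 56 members passed a filter on dim probe sets that left 11287 genes in all. Srsf3 and the pseudogene Srsf7-ps4 did not pass and were not tested.

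The adrenal medulla releases adrenaline and noradrenaline into the blood under stress. Its RNA was measured on 9 Affymetrix oligonucleotide arrays. The animals were adult rats (Rattus norvegicus) of 280 to 320 g, with strain, sex and genotype not given in the sources used here. Control rats were unstressed. The 1XIMO rats were immobilized for 2 h on 1 occasion and the 6XIMO rats for 2 h a day on 6 days. The tissue of both glands was taken after the last session. There were 3 arrays per group. Some label fields name mouse or brain, and the organism field and the design text were followed instead. The labels do not say that each array holds a separate animal, so a p-value here measures only how far these samples spread, and that spread may be technical.

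Splicing removes introns in the spliceosome, which is built on each intron from small nuclear ribonucleoproteins (snRNPs). The U1 snRNP marks the start of the intron, the U2 snRNP with SF3a and SF3b settles on the branch point, and the U4/U6.U5 tri-snRNP, many of whose proteins carry the Prp name, brings in the catalytic core. SR proteins mostly favour the use of nearby exons, while hnRNPs coat nascent transcripts and often oppose it, so that the balance of these proteins helps to choose among exons in each tissue.

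The promoters of 3 members on which the results turn are shown first, because they belong to the genes called lower after both 1 and 6 sessions (Prpf19 and Prpf4) and to an Sm gene that rose after 6 sessions (Snrpd2). Each is the 250 bases before the start of the RefSeq gene in the rat build GRCr8, on the plus strand, at chr1:216966257-216966506, chr5:80875261-80875510 and chr1:87926159-87926408 in this order. Capitals mark matches to any of the 8 motifs given in the next paragraph.
Prpf19: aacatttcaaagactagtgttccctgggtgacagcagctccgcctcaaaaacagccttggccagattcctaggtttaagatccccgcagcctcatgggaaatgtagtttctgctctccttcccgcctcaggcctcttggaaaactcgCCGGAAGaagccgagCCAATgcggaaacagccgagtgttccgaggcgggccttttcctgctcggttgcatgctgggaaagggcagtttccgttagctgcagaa
Prpf4: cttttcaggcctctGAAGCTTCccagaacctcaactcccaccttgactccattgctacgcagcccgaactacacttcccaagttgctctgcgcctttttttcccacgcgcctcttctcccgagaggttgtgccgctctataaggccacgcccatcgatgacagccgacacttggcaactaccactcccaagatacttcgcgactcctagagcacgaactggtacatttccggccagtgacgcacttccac
Snrpd2: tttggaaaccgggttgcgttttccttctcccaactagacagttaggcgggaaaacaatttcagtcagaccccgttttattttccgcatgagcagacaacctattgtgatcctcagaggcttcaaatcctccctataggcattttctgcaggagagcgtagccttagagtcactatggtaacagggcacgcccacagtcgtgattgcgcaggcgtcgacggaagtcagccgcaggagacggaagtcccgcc

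A RefSeq promoter was matched to 55 of the 58 members, all but Srsf7-ps4, Hnrnpll and Sf3b2. Their median GC content was 58.4%, against 52.0% over the 27457 genes with a promoter. The motifs were searched on both strands over these 250 bases. The ETS motif CCGGAAG was found in 16 members (29.1%, against 8.11% of all genes with a promoter), among them Prpf19, Hnrnpd, Snrpd1 and Snrpe. The GC box GGGCGG was found in 31 members (56.4%, against 33.5%) and the CCAAT box CCAAT in 27 (49.1%, against 36.1%). The cAMP response element TGACGTCA was found in 0 of the 55, and in 1.78% of all genes with a promoter. The E-box CACGTG (6.18% of genes), the TATA box TATAAA (14.1%) and the heat shock element GAANNTTC (7.71%) were each in 6 members (10.9%). The palindromic NRF1 motif was found in 2 members (3.64%, against 0.87%). In the sequences printed above, Prpf19 held an ETS motif and a CCAAT box, Prpf4 a heat shock element and Snrpd2 none of the 8 motifs. The 27457 genes were not limited to those tested on the arrays, so the contrasts do not show a trait particular to splicing genes. These matches describe letters only.

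The arrays themselves set limits that touch every value of the 6XIMO group. The ratio of the 3′ to the 5′ probe sets of actin, which rises when the labelled RNA is less complete, lay between 1.45 and 2.15 on the 6 control and 1XIMO arrays. It was 231, 6.11 and 8.87 on 6XIMO replicates 1, 2 and 3. The GAPDH ratio was 5.02, 1.79 and 1.87 on these arrays and at most 1.41 on the others. Both differences gave p = 0.1 in an exact two-sided permutation test, the smallest that 3 against 3 arrays allow. 6XIMO replicate 1 also correlated with the other 8 arrays at 0.604 to 0.730 (Pearson, across genes), whereas those 8 correlated with each other at 0.854 to 0.983. Results are therefore given with and without this array, which also enters the spread shared by the 3 groups. The mean log2 level of 30 spike-in controls was 14.04, 10.69 and 11.05 on 6XIMO replicates 1, 2 and 3. It was 9.44 to 10.48 on the other arrays (exact permutation p = 0.1 for 6XIMO against control). The trimmed means of the arrays were equal (2500.57 to 2501.03), but their medians ran from 593 to 1583. A level below is log2(value + 16) of 1 probe set.

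The tissue label was checked on marker genes. Of 11 chromaffin cell markers tested, 1 was higher after 1XIMO and 6 after 6XIMO, and none was lower (0 and 0). Their mean level was 14.39 to 15.01 on the control arrays, 14.74 to 15.41 on the 1XIMO arrays and 15.44 to 16.14 on the 6XIMO arrays. Adrenal cortex markers were present in all groups too. Of 10 tested, 2 were higher after 1XIMO, and 7 were higher and 1 lower after 6XIMO, with mean levels of 14.52 to 14.99, 14.56 to 15.57 and 15.61 to 16.01 in the 3 groups. Leukocyte markers went the other way after 6XIMO, with 3 of 9 lower and mean levels of 11.04 to 11.76 against 12.16 to 12.29 in control. After 6 sessions 2 of 8 endothelial and 1 of 7 Schwann cell markers were lower and 1 of 7 fibroblast markers was higher, and none of these (0) was called after 1. Of the 3 erythrocyte, 1 adipocyte and 6 neuron markers tested, 0 were called in either comparison. Over all genes tested, 4.2% were higher and 5.31% lower after 1 session, and 9.36% were higher and 14.9% lower after 6. The endothelial, Schwann cell and fibroblast counts rest on 1 or 2 genes each and are not read as a change of those cells. The part of the marker shifts in the results below was not tested. In bulk tissue, fewer cells of a type and less RNA per cell cannot be told apart.

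A single session left most of these genes near their control level. With limma over all genes tested and Benjamini-Hochberg adjustment, 3 of the 56 members were called (adjusted p under 0.05) in 1XIMO against control. That is 5.36% of the members, against 9.51% of all genes tested, of which 4.2% were higher and 5.31% lower. The Sm protein gene Snrpd1 rose, and the Prp factor genes Prpf19 and Prpf4 fell. The median log2 fold change of the members was 0.02, against -0.13 over all genes. On the log2 scale 54 of the 56 members changed by less than 1, as did 87.9% of all genes. The levels of the 3 arrays of each group did not overlap in 13 members that were higher and 9 that were lower (39.3% together, against 42.9% of all genes, of which 13.4% were higher and 29.5% lower).

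Prpf19 encodes the ubiquitin ligase at the centre of the Prp19 complex, which joins the spliceosome when it is activated. Its level was 14.09, 13.66 and 13.97 on the control arrays, 12.82, 12.44 and 12.24 on the 1XIMO arrays and 12.80, 12.80 and 12.81 on the 6XIMO arrays. Every immobilized array lay below every control array. The log2 fold change was -1.41 ± 0.20 (SE, n = 3 arrays per group) after 1 session, a 2.65-fold lower value (limma, adjusted p = 0.00265). It was -1.10 ± 0.20 after 6 sessions, 2.15-fold lower (adjusted p = 0.00493). The 2 comparisons share the control arrays. Both calls held with each of the 9 arrays left out in turn. Both were lost with median centring (adjusted p = 0.24 and 0.26), and the second also with the replicate block in a fit of 2 groups (adjusted p = 0.0558). The difference of 6XIMO from 1XIMO was 0.30 ± 0.20 (adjusted p = 0.361) and was not called.

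Prpf4 encodes a WD-repeat protein of the U4/U6 snRNP. Its level was 12.50, 12.43 and 12.67 in control, 11.59, 11.54 and 11.53 after 1XIMO and 11.49, 11.70 and 12.07 after 6XIMO. Again no immobilized array reached the lowest control. Prpf4 was 1.97-fold lower after 1 session (log2 fold change -0.98 ± 0.19, limma adjusted p = 0.0134) and 1.72-fold lower after 6 (-0.78 ± 0.19, adjusted p = 0.0179). The first call was lost without control replicate 3, 1XIMO replicate 2 or 1XIMO replicate 3, with an adjusted p of at most 0.0758, and the second without control replicate 1 or 3, with at most 0.0796. Quantile normalization also ended the second call (-0.67, adjusted p = 0.0591). In RefSeq, 8 members have a tested gene that starts within 1000 bases upstream on the opposite strand. For Prpf4 it is Cdc26, a subunit of the anaphase-promoting complex. Cdc26 changed by -0.54 ± 0.21 after 1 session (adjusted p = 0.155) and fell by 1.18 on the log2 scale after 6 (SE 0.21, adjusted p = 0.00423). Mfsd11, the neighbour of Srsf2, was lower after 6 sessions too (-1.55 ± 0.48, adjusted p = 0.0425). The brightest Srsf2 probe set had a positive difference there that was not called (0.52). The other 6 neighbours were not called against control.

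Snrpd1 encodes SmD1, one of the proteins of the ring that all spliceosomal snRNPs except U6 share. Its level was 11.73, 11.34 and 10.90 in control and 12.60, 12.29 and 12.53 after 1XIMO, without overlap. The rise was 2.22-fold (log2 fold change 1.15 ± 0.29, limma adjusted p = 0.0361). After 6XIMO the levels were 12.65, 11.68 and 11.97, of which replicate 2 lay within the control range, and the difference of 0.78 ± 0.29 was not called (adjusted p = 0.0799). The Snrpd1 call after 1 session held only without control replicate 1, 6XIMO replicate 1 or 6XIMO replicate 2, and its adjusted p reached 0.162 without control replicate 3. A second Snrpd1 probe set, with levels of 11.03, 9.99 and 11.05 in control and 11.07, 10.30 and 10.25 after 1XIMO, gave -0.15 (adjusted p = 0.962 with every probe set tested on its own).

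How many members were called after 1 session depended on which arrays set the spread. Without 6XIMO replicate 1, 14 of 57 members were called, 9 higher and 5 lower (24.6%, against 30.2% of all genes, of which 9.84% were higher and 20.3% lower), and they held the 3 above with the same direction. The others higher were Hnrnpc (log2 fold change 0.44), Prpf4b (0.47), Hnrnpdl (0.48), Hnrnph1 (0.54), Srsf6 (0.54), Prpf38a (0.55), Hnrnpa1 (0.55) and Hnrnph3 (0.75). The others lower were Hnrnpul1 (-0.65), Sf3b2 (-0.54) and Sf3b4 (-0.37). Of the 9 that were higher, 5 were hnRNP genes. The control and 1XIMO arrays of the same number deviated together, which the main fit did not take into account. With the number as a block 5 members were called, 2 higher and 3 lower (8.66% of all genes), which added Hnrnph3 and Hnrnpul1. Quantile normalization called 0 higher and 3 lower (7.15% of all genes). Median centring called 0 members (1.99% of all genes), so that all 3 calls were lost, and 2 members had an unadjusted p under 0.05. Without control replicate 3, 1XIMO replicate 2 or 1XIMO replicate 3 the count was 1, Prpf19, and 3.2, 4.2 or 3.6% of all genes were called.

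**Figure D1:**
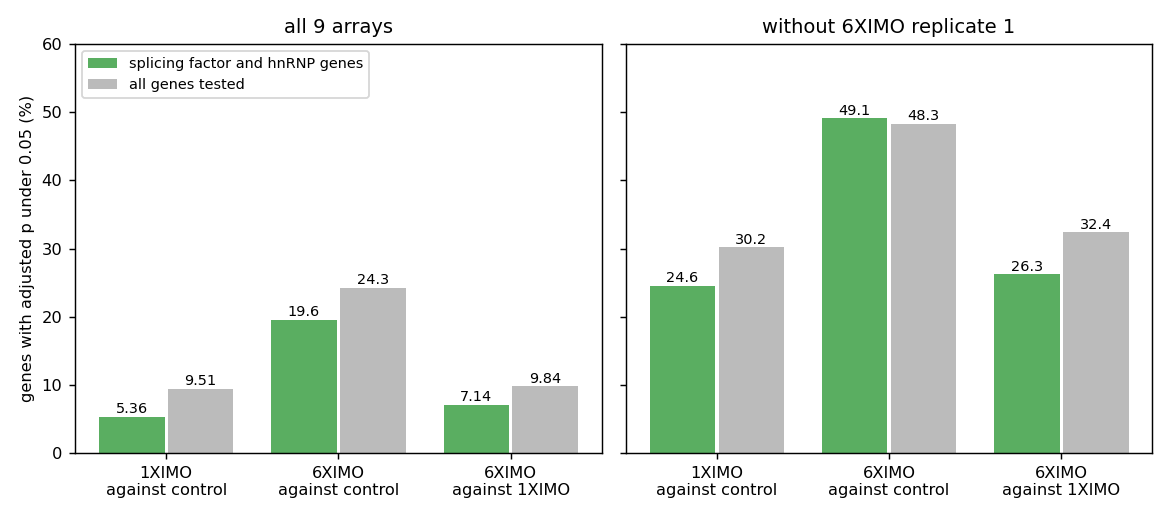
Share of the splicing factor and hnRNP genes (green) and of all genes tested (grey) with an adjusted p under 0.05 in each comparison, in percent, with all 9 arrays (left) and without 6XIMO replicate 1 (right). The members' share was 5.36, 19.6 and 7.14% with all arrays, below that of all genes each time, and without 6XIMO replicate 1 it was 49.1% against 48.3% in 6XIMO against control.

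After 6 daily sessions members were called in both directions. In 6XIMO against control 11 of the 56 members were called, 4 higher and 7 lower (19.6%, against 24.3% of all genes tested). All genes were called higher in 9.36% and lower in 14.9%. This count was above that after 1 session in the fit of all 9 arrays, but with only the 2 groups compared the order turned, with 12 members called after 1 session (28.4% of all genes) and 2 after 6 (13.5%). The 4 that rose were the snRNP protein genes Snrpd2, Snrpa1 and Snrpe and the hnRNP gene Hnrnpc. The 7 that fell were Hnrnpd, Hnrnpul1, Snrpf and the Prp factor genes Prpf40b, Prpf19, Prpf4 and Prpf18. The median log2 fold change of the members was -0.30, against -0.23 over all genes. Groups did not overlap in 7 members that were higher and 17 that were lower (42.9% together, against 41.5% of all genes, of which 14.9% were higher and 26.6% lower).

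Snrpd2, which encodes SmD2, the ring neighbour of SmD1, had levels of 13.51, 14.15 and 14.13 in control, 13.89, 14.24 and 14.20 after 1XIMO and 14.66, 14.97 and 14.92 after 6XIMO. The 6XIMO arrays lay above all others, while control and 1XIMO overlapped. Snrpd2 rose 1.89-fold after 6 sessions (log2 fold change 0.92 ± 0.23, limma adjusted p = 0.0195), and its difference after 1 session was 0.18 ± 0.23 (adjusted p = 0.795). The call after 6 sessions was lost without control replicate 1, 6XIMO replicate 2 or 6XIMO replicate 3 (adjusted p up to 0.0736). Quantile normalization gave 0.54 (adjusted p = 0.111).

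Snrpe, another protein of the Sm ring, had levels of 14.18, 14.31 and 14.36 in control, 14.16, 14.36 and 14.38 after 1XIMO and 14.71, 14.91 and 15.02 after 6XIMO, the last above all others. The rise after 6 sessions was 1.51-fold (0.60 ± 0.19, limma adjusted p = 0.0456), and the call held in 1 of the 9 fits that left out an array, the one without 6XIMO replicate 1. Its adjusted p reached 0.139 without control replicate 1, and quantile normalization gave 0.17 (adjusted p = 0.416). Snrpa1 encodes protein A′ of the U2 snRNP. Its levels were 11.08, 11.40 and 11.24 in control, 11.45, 11.81 and 11.78 after 1XIMO and 11.88, 12.08 and 12.01 after 6XIMO, so that the 3 groups did not overlap. Snrpa1 rose 1.68-fold after 6 sessions (0.75 ± 0.19, adjusted p = 0.0188), and the difference after 1 was 0.44 ± 0.19 (adjusted p = 0.20). The call after 6 sessions was lost without control replicate 1, control replicate 3 or 6XIMO replicate 2 (adjusted p up to 0.0686).

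The genes of the Sm ring did not all move the same way. Snrpf, which encodes SmF, had levels of 12.96, 13.37 and 13.86 in control, 13.01, 12.92 and 13.20 after 1XIMO and 11.78, 12.86 and 12.66 after 6XIMO. The 6XIMO arrays were below every control array, the first of them furthest. Snrpf fell 1.95-fold after 6 sessions (log2 fold change -0.96 ± 0.31, limma adjusted p = 0.0498). Without 6XIMO replicate 1 its difference was -0.64 (adjusted p = 0.0385). The call was lost without control replicate 2 or 3, without any 1XIMO array or without 6XIMO replicate 3 (adjusted p up to 0.18), and with quantile normalization (-0.98, adjusted p = 0.0508). Snrpd3 (0.30 ± 0.27), Snrpb (-0.20 ± 0.27), Snrpa (0.02 ± 0.35) and Snrpb2 (-0.81 ± 0.38), which encode SmD3, SmB and proteins of the U1 and U2 snRNPs, were not called. Snrpn, an imprinted relative of Snrpb, had levels of 9.77, 9.57 and 9.19 in control and 8.45, 6.05 and 9.06 after 6XIMO, and its difference of -1.66 ± 0.72 was not called (adjusted p = 0.122).

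Among the hnRNP genes, Hnrnpc encodes the protein that binds uridine-rich stretches of nascent transcripts. Its level was 14.20, 14.39 and 14.64 in control, 14.88, 14.93 and 14.74 after 1XIMO and 14.91, 15.34 and 15.69 after 6XIMO. Every immobilized array lay above every control array. Hnrnpc rose 1.87-fold after 6 sessions (log2 fold change 0.91 ± 0.25, limma adjusted p = 0.0261), and the difference after 1 was 0.44 ± 0.25 (adjusted p = 0.361). The call after 6 sessions was lost without any 1 control array or without 6XIMO replicate 2 or 3 (adjusted p up to 0.0991), and quantile normalization gave 0.36 (adjusted p = 0.136).

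Hnrnpd encodes AUF1, which binds AU-rich elements of messenger RNAs. It stood at 13.66, 13.29 and 13.26 in control, 13.39, 13.21 and 13.19 after 1XIMO and 11.23, 12.71 and 12.68 after 6XIMO. The 6XIMO arrays were the lowest, and replicate 1 lay far below the other 6XIMO arrays. With all arrays Hnrnpd fell 2.29-fold (log2 fold change -1.20 ± 0.36, limma adjusted p = 0.0371), and without 6XIMO replicate 1 the difference was -0.71 (adjusted p = 0.00349), called but smaller. The call was lost on leaving out any 1 control or 1XIMO array (adjusted p up to 0.12), with quantile normalization (-1.34, adjusted p = 0.0586), and with only the 2 groups compared (adjusted p = 0.0971). Hnrnpul1, a relative of the scaffold protein gene Hnrnpu, had levels of 12.62, 13.15 and 12.85 in control, 11.94, 12.44 and 12.28 after 1XIMO and 11.84, 12.47 and 12.15 after 6XIMO. Immobilized arrays of both kinds lay below control. Hnrnpul1 fell 1.65-fold after 6 sessions (-0.72 ± 0.23, adjusted p = 0.0499), and the difference after 1 was -0.65 ± 0.23 (adjusted p = 0.122). The call after 6 sessions held only without 6XIMO replicate 1 or 2 among the 9 fits that left out an array, and its adjusted p reached 0.177 without control replicate 2. Quantile normalization gave -0.63 (adjusted p = 0.0732).

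On their brightest probe sets the other hnRNP genes were not called after 6 sessions. Hnrnpa3 (0.55 ± 0.25, limma adjusted p = 0.139) and Hnrnpu (0.14 ± 0.28, adjusted p = 0.747) were named by the rule for the highest mean level. Hnrnpa3 stood at 15.04, 14.58 and 14.69 in control, 15.26, 14.87 and 14.74 after 1XIMO and 15.02, 15.36 and 15.56 after 6XIMO, with overlap. Of its 5 probe sets, tested on their own, 4 gave negative values after 6 sessions. Among these, 2 were called lower (-0.87 and -1.24, limma adjusted p = 0.00902 and 0.0443). Of the 3 Hnrnpu probe sets 2 gave negative values, down to -0.87, and 1 was called lower. Several members were low on 6XIMO replicate 1 alone. Hnrnpr, for example, stood at 10.94 there and at 13.11 and 13.07 on the other 6XIMO arrays, against 13.09 to 13.23 in control, and Hnrnpl at 12.68 there against 14.62 and 14.57. The median difference of the 17 hnRNP genes from control was -0.82 on that array and 0.00 and 0.18 on the others.

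Of the Prp factors, Prpf40b, a relative of the yeast U1 snRNP protein Prp40, changed after 6 sessions and not detectably after 1. Its level was 12.03, 12.26 and 12.07 in control, 12.30, 11.69 and 11.95 after 1XIMO and 11.22, 10.72 and 10.996 after 6XIMO. The 6XIMO arrays were the lowest 3 of the 9. Prpf40b fell 2.20-fold against control (log2 fold change -1.14 ± 0.22, limma adjusted p = 0.00617), and this call held with each of the 9 arrays left out. Prpf18 encodes a factor of the second catalytic step. It stood at 12.14, 12.50 and 12.14 in control, 12.08, 11.55 and 11.93 after 1XIMO and 11.59, 11.60 and 11.65 after 6XIMO. It fell 1.56-fold after 6 sessions (-0.65 ± 0.20, adjusted p = 0.0421), a call that held only without 1XIMO replicate 1 or 6XIMO replicate 1 among such fits (adjusted p up to 0.158). Quantile normalization gave -0.48 (adjusted p = 0.139). A second Prpf18 probe set gave -0.27 after 6 sessions, which was not called, and 0.20 after 1.

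Prpf8, the scaffold of the catalytic centre, was not called after 6 sessions with all arrays (-1.12 ± 0.37, limma adjusted p = 0.0528). Its level was 14.35, 14.40 and 14.22 in control, 14.25, 14.38 and 14.20 after 1XIMO and 12.16, 13.79 and 13.65 after 6XIMO, which lay below all others. Without 6XIMO replicate 1 it was called with a difference of -0.61 (adjusted p = 0.00318). Prpf38a, a factor of spliceosome activation, stood at 11.29, 11.37 and 11.37 in control and between 11.61 and 12.25 on the 6 immobilized arrays. Its differences of 0.55 ± 0.22 after 1 session (adjusted p = 0.159) and 0.63 ± 0.22 after 6 (adjusted p = 0.0594) were not called. Prpf6, a bridging protein of the tri-snRNP, changed by 0.17 ± 0.21 after 6 sessions.

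No SR protein gene and no SF3 gene was called against control in either comparison with all arrays (0 of 9 in each class). The SR protein gene Srsf2 stood at 14.72, 14.89 and 14.82 in control, 15.15, 14.92 and 14.61 after 1XIMO and 15.53, 15.16 and 15.29 after 6XIMO. The 6XIMO arrays lay above control, but the difference of 0.52 ± 0.22 was not called (limma adjusted p = 0.119). A second Srsf2 probe set gave -0.57 after 6 sessions, also not called. Srsf5 stood at 14.49, 14.52 and 14.74 in control and 13.61, 14.29 and 14.33 after 6XIMO (-0.51 ± 0.23, adjusted p = 0.145), and quantile normalization called it (-0.84, adjusted p = 0.00503). Srsf6 had levels of 13.70, 13.70 and 13.80 in control and 14.35, 14.21 and 14.29 after 1XIMO, without overlap, and 10.80, 14.13 and 14.08 after 6XIMO. Its first 6XIMO array thus lay lowest of all 9 and the other 6XIMO arrays above control. The median difference of the 9 SR genes from control was -0.97 on 6XIMO replicate 1, -0.07 on replicate 2 and -0.25 on replicate 3.

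The SF3 complexes hold the U2 snRNP on the branch point. Sf3b1, whose protein contacts the branch point region, changed by 0.12 ± 0.28 after 1 session and 0.15 ± 0.28 after 6, and Sf3b5, a small SF3b subunit, by -0.06 ± 0.42 and -0.32 ± 0.42. On their brightest probe sets Sf3b2 and Sf3b4 were below control on every immobilized array. Sf3b2 stood at 13.59, 13.77 and 13.76 in control, 13.07, 13.32 and 13.11 after 1XIMO and 13.35, 13.29 and 13.29 after 6XIMO. With all arrays neither was called, with limma adjusted p of 0.0746 and 0.112 for Sf3b2 and 0.202 and 0.0618 for Sf3b4. Without 6XIMO replicate 1 both were called lower in both comparisons.

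**Figure D2:**
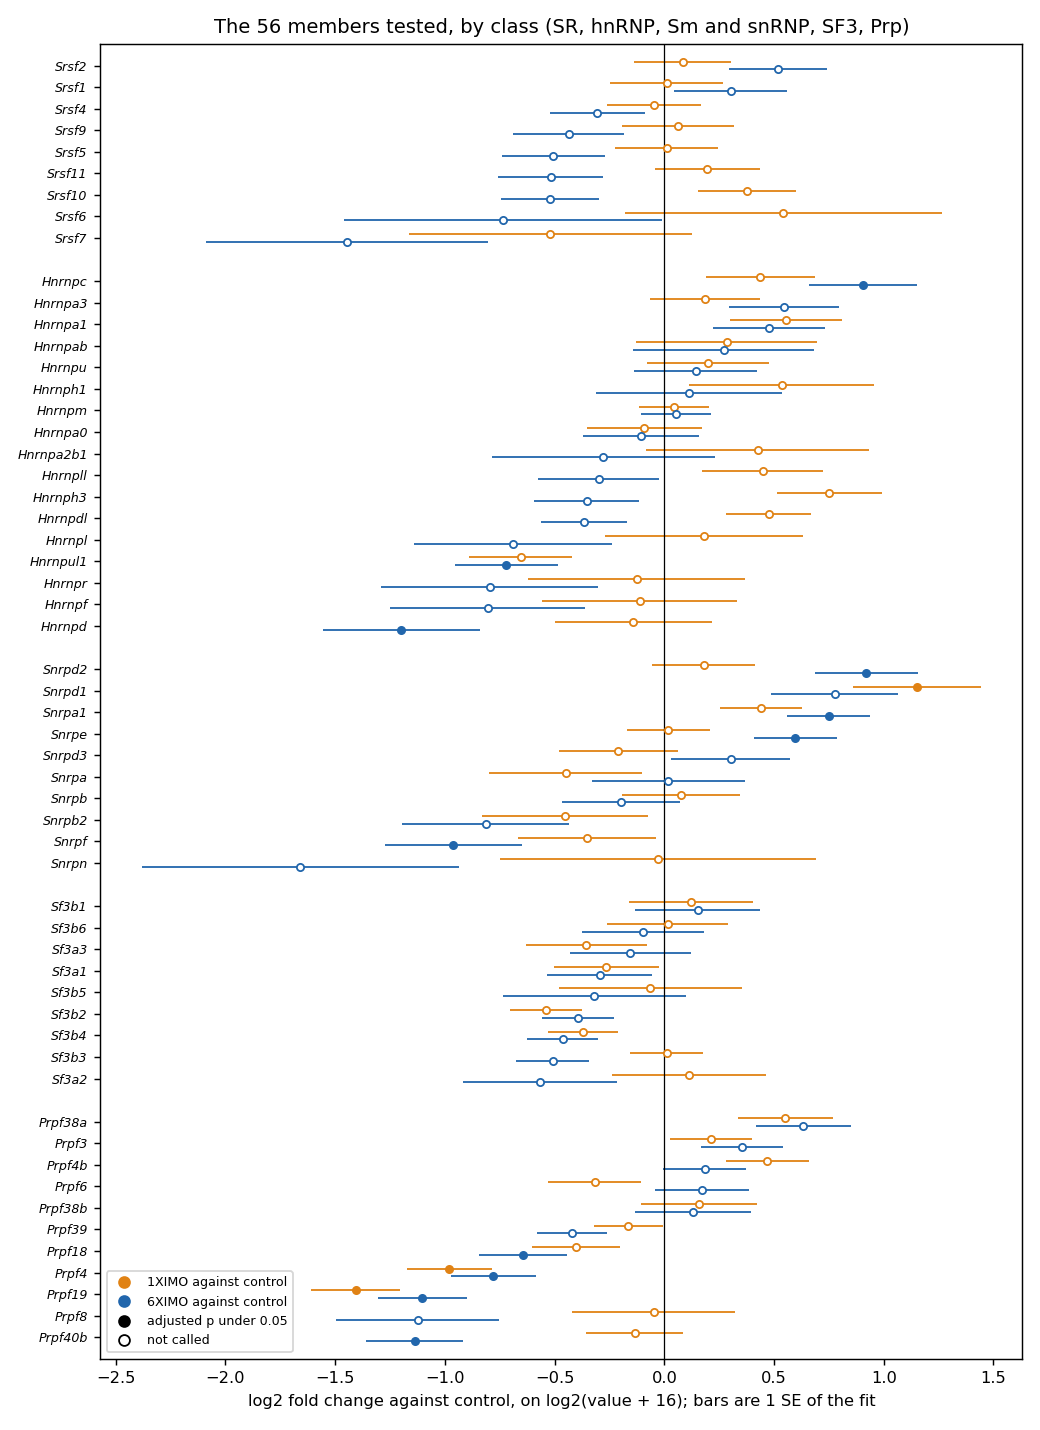
Log2 fold change against control of the 56 members tested, by class, after 1XIMO (orange) and 6XIMO (blue), on log2(value + 16). Bars are 1 SE of the fit over 3 arrays per group and filled points have an adjusted p under 0.05, which 3 members had after 1 session and 11 after 6.

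Leaving out 6XIMO replicate 1 raised the count after 6 sessions from 11 to 28 of 57 members, 14 higher and 14 lower (49.1%, against 48.3% of all genes, of which 17.6% were higher and 30.7% lower), and the 11 were among them with the same direction. The median log2 fold change then was -0.05, against -0.23 over all genes. By class the calls were 2 higher and 0 lower of 10 SR genes, 6 and 2 of 17 hnRNP genes, 4 and 2 of 10 snRNP genes, 1 and 4 of 9 SF3 genes and 1 and 6 of 11 Prp genes. This split between higher and lower depended on the scaling. Quantile normalization called 2 higher and 6 lower with all arrays (17.5% of all genes were called), and 5 higher and 16 lower without 6XIMO replicate 1 (35.1% of all genes). Centring each array on its median called 0 members with all arrays (6.1% of all genes), where 3 had an unadjusted p under 0.05. Without 6XIMO replicate 1 this centring called 27 higher and 1 lower, because it moved the median of all genes to 0.38. The classes were mixed: of the 11 Prp genes 5 had positive and 6 negative differences with all arrays, and of the 10 snRNP genes 6 had positive and 4 negative ones. Leaving out control replicate 1, 2 or 3 reduced the count to 3, 5 or 3, while the share of all genes called fell to 15.3, 13 or 12.2%. Leaving out 1XIMO replicate 1, 2 or 3 reduced it to 7, 6 or 6 (21.7, 18.7 or 18.9% of all genes), and leaving out 6XIMO replicate 3 to 7 (20.7%).

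**Figure D3:**
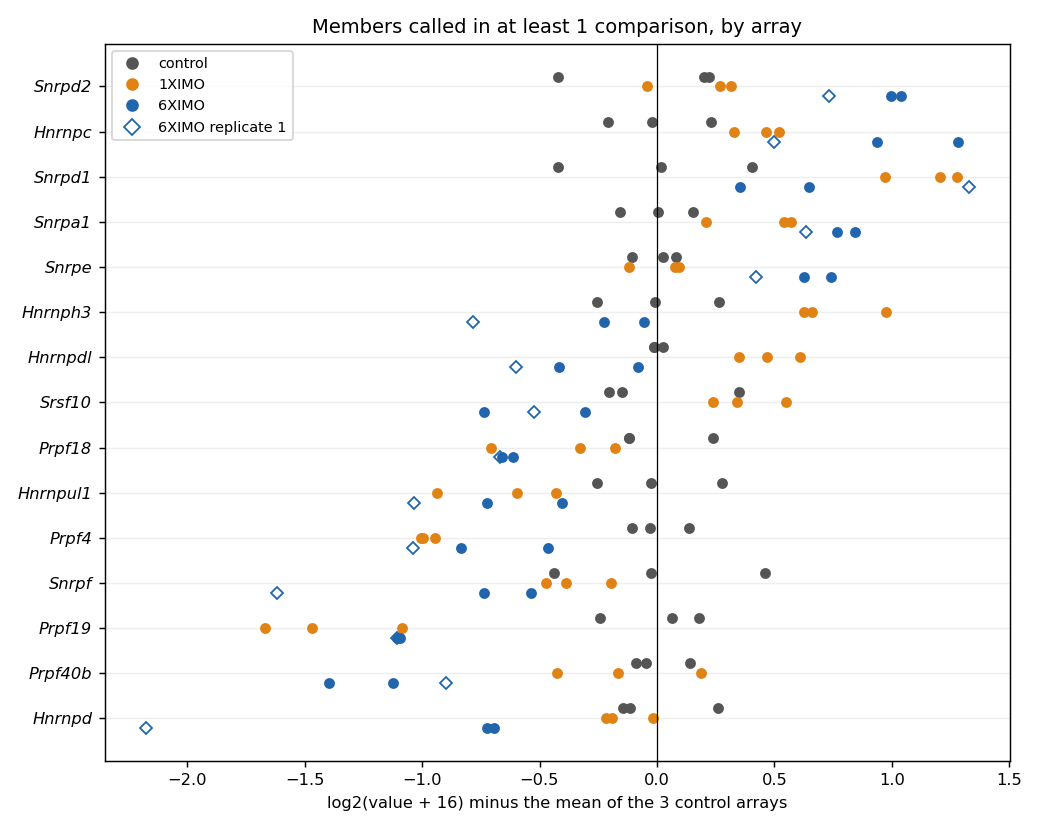
Level on each array of the 15 members called in at least 1 comparison, as log2(value + 16) minus the mean of the 3 control arrays (grey control, orange 1XIMO, blue 6XIMO, open diamond 6XIMO replicate 1). Prpf19 and Prpf4 lie left of control on all 6 immobilized arrays, and Hnrnpd on 6XIMO replicate 1 lies far left of the other 6XIMO arrays.

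The direct comparison of 6 sessions with 1 session tests whether the responses differed. In 6XIMO against 1XIMO 4 of the 56 members were called, all lower after 6 sessions (7.14%, against 9.84% of all genes tested, of which 5.21% were higher and 4.63% lower). Groups did not overlap in 5 members that were higher and 16 that were lower (37.5% together, against 33.8% of all genes, of which 16.1% were higher and 17.7% lower). The 4 called were Hnrnph3, Prpf40b, Srsf10 and Hnrnpdl. Hnrnph3, of a family that binds G-rich RNA, had levels of 12.02, 12.27 and 12.54 in control, 12.90, 12.93 and 13.25 after 1XIMO and 11.49, 12.22 and 12.05 after 6XIMO. The 1XIMO arrays were above all others. Hnrnph3 was 2.15-fold lower after 6 sessions than after 1 (log2 difference -1.11 ± 0.24, limma adjusted p = 0.0228). Its differences from control were 0.75 ± 0.24 (adjusted p = 0.0827) and -0.35 ± 0.24 (adjusted p = 0.311) on this brightest probe set. A second Hnrnph3 probe set, tested on its own, was called lower than control after 6 sessions (-0.62, limma adjusted p = 0.0389). After 1 session that probe set gave 0.27 (adjusted p = 0.531).

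Hnrnpdl, a relative of Hnrnpd, went the same way. It stood at 13.98, 13.98 and 14.01 in control, 14.34, 14.46 and 14.60 after 1XIMO and 13.39, 13.91 and 13.57 after 6XIMO. All 1XIMO arrays lay above control and all 6XIMO arrays below it. The 6XIMO level was 1.79-fold below the 1XIMO level (log2 difference -0.84 ± 0.19, limma adjusted p = 0.0279). Srsf10, an SR protein known as a splicing repressor when it loses its phosphates, had levels of 11.73, 11.23 and 11.18 in control, 11.72, 11.62 and 11.93 after 1XIMO and 10.86, 10.64 and 11.07 after 6XIMO. It was 1.86-fold lower after 6 sessions than after 1 (-0.90 ± 0.22, adjusted p = 0.0357). This call rests on the brightest of 5 Srsf10 probe sets: the other 4 gave -0.58 to 0.22 and were not called, and the mean of all 5 gave -0.42 (adjusted p = 0.57). The second probe set of Hnrnpdl gave -0.38 (adjusted p = 0.376), and that of Hnrnph3 -0.88 (adjusted p = 0.0222). Prpf40b was about 2.004-fold lower (-1.003 ± 0.22, adjusted p = 0.0243). None of the 4 calls survived the loss of any 1XIMO array. Without 1XIMO replicate 1, 2 or 3 the counts were 0, 0 and 0. Between 9 and 13 members then had an unadjusted p under 0.05. Few genes of any kind were called in these fits (3.19, 0.31 and 0% of all genes). The adjusted p of the 4 members reached 0.103 (Hnrnph3), 0.0937 (Prpf40b), 0.144 (Srsf10) and 0.115 (Hnrnpdl), each without 1XIMO replicate 3. The counts were 2 without control replicate 2, 1 without control replicate 3 and 1 without 6XIMO replicate 3 (5.19, 4.75 and 5.96% of all genes). Without 6XIMO replicate 1 the count was 15, of which 6 were higher and 9 lower (26.3%, against 32.4% of all genes, of which 15.1% were higher and 17.3% lower). Quantile normalization without that array gave 3 higher and 12 lower (22.1% of all genes).

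Different probe sets of 1 gene read different stretches of its transcripts, and in 19 members more than 1 passed the filter. After 1 session the probe sets of these members lay closer together than after 6, but not closer than those of other genes. The median spread between the highest and the lowest log2 fold change of a member was 0.37, against 0.29 over 3249 genes with several probe sets. After 6 sessions it was 1.09, against 0.94. The probe sets of a member had both signs in 6 of the 19 members after 1 session (27.8% of all such genes) and in 12 of the 19 after 6 (44.2% of all such genes). Tested on their own, 18 of 90 member probe sets were called after 6 sessions, 6 higher and 12 lower (20%, against 22.5% of all probe sets, of which 8.16% were higher and 14.3% lower). After 1 session 3 of 90 were called (3.33%, against 7.29%, of which 3.65% were higher and 3.64% lower). Between 6 and 1 sessions 1 was higher and 12 were lower (14.4%, against 9.33%, of which 4.13% were higher and 5.2% lower).

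Srsf11, an arginine- and serine-rich protein found with U2AF, showed the widest spread after 6 sessions. Its brightest probe set had levels of 13.50, 13.57 and 13.66 in control and 12.55, 13.51 and 13.12 after 6XIMO (log2 fold change -0.52, limma adjusted p = 0.152). A second one read 11.61, 11.96 and 11.99 in control and 15.67, 13.68 and 13.18 after 6XIMO (2.33, adjusted p = 0.0150). The first went down and the second up on each of the 3 arrays relative to the control mean. Sf3b2 gave -0.39 (adjusted p = 0.119) on its brightest probe set and 1.80 (adjusted p = 0.0442) on a second, which read 11.62, 11.55 and 11.42 in control and 14.98, 12.47 and 12.53 after 6XIMO. The 3 probe sets of Srsf6 gave -0.73, -1.32 and -3.10, and the last of them read 12.21, 11.90 and 11.83 in control and 7.42, 9.76 and 9.46 after 6XIMO (adjusted p = 0.00394). Those of Hnrnpa1, an abundant repressor of exon use, gave 0.48, -0.33 and 1.66, the last called (adjusted p = 0.00649). The 4 probe sets of its relative Hnrnpa2b1 all gave negative values, from -1.54 to -0.28. Only the lowest was called (limma adjusted p = 8.05e-04). It differed from the control mean by -1.66, -1.27 and -1.70 on 6XIMO replicates 1, 2 and 3. This probe set was also called lower after 6 sessions than after 1 (-1.88, adjusted p = 0.00722). On Srsf11, Sf3b2, Srsf6 and Hnrnpa1 the probe set with the widest change was most extreme on 6XIMO replicate 1, the array with the actin ratio of 231. The part of RNA completeness, or of transcript forms that differ between probe sets, was not tested.

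**Figure D4:**
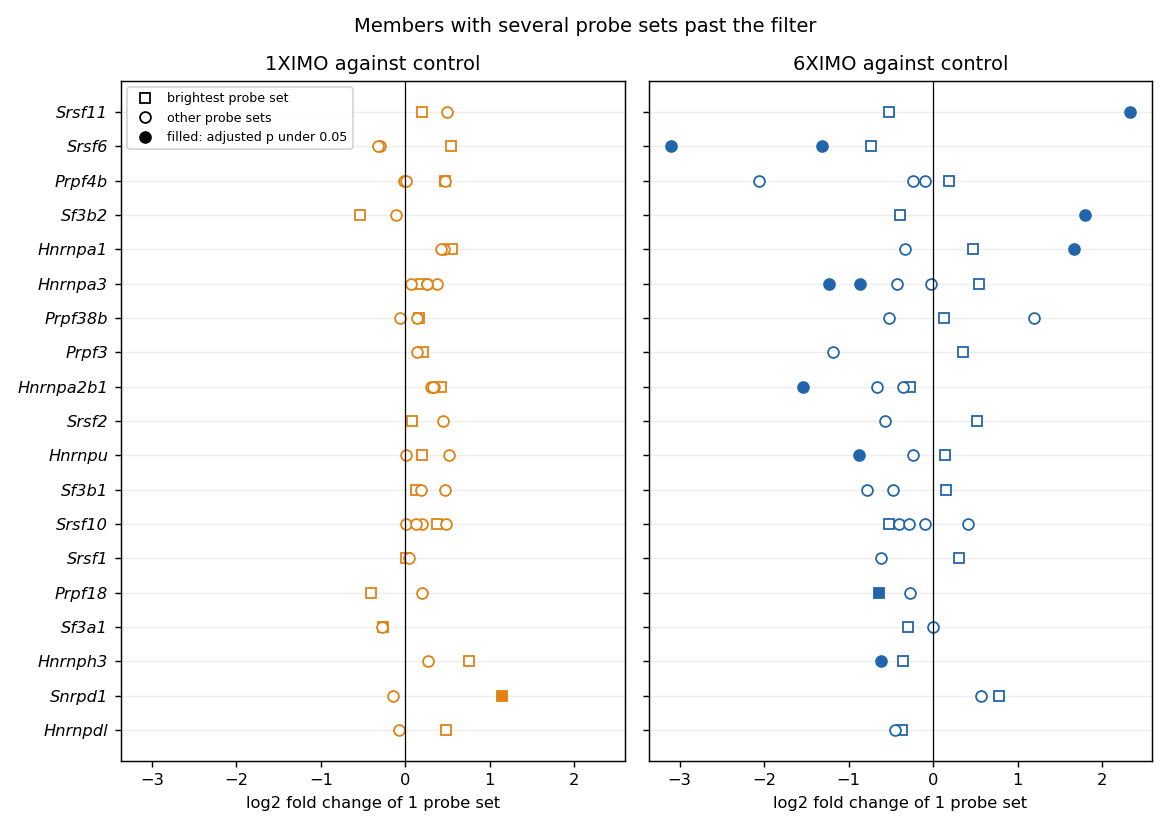
Log2 fold change against control of each probe set of the 19 members with several that passed the filter, after 1XIMO (left) and 6XIMO (right). Squares are the brightest probe set of a gene, circles the others and filled symbols have an adjusted p under 0.05. The points of a gene lie closer together on the left (median spread 0.37) than on the right (1.09).

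Other genes of the splicing pathway were counted in 7 lists with 140 genes, of which 128 were tested. After 1 session 4 were called higher and 7 lower (8.59%), after 6 sessions 14 higher and 23 lower (28.9%), and between 6 and 1 sessions 10 higher and 11 lower (16.4%). The percentages of all genes were 9.51, 24.3 and 9.84. The list of snRNP assembly factors, the SMN complex and its partners that load the Sm ring onto small nuclear RNAs, held no gene called higher against control. Of its 16 genes tested, 5 were lower and 0 higher after 1 session (5.31 and 4.2% of all genes). The median log2 fold change of the list was -0.72 against -0.13 over all genes. After 6 sessions 7 were lower and 0 higher (14.9 and 9.36% of all genes), with a median of -0.54 against -0.23. With quantile normalization its medians were -0.61 against -0.10 over all genes after 1 session and -0.41 against -0.15 after 6. Median centring shifts all genes of an array alike and so cannot change this order. Without 6XIMO replicate 1 the calls were 1 higher and 10 lower in both comparisons. Of all genes, 9.84% were then higher and 20.3% lower after 1 session, and 17.6 and 30.7% after 6. Quantile normalization of all arrays gave 0 and 2 after 1 session and 0 and 3 after 6 (7.15 and 17.5% of all genes called). Median centring gave 0 and 1 in both (1.99 and 6.1%). Median centring without 6XIMO replicate 1 gave 2 higher and 2 lower after 6 sessions.

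Within this list Gemin4, a scaffold of the SMN complex, had a log2 fold change of -1.96 ± 0.42 after 1 session (limma adjusted p = 0.0183) and Snupn, the import adaptor of assembled snRNPs, one of -1.26 ± 0.27 (adjusted p = 0.0192). Gemin7, another subunit, fell after 1 session too (-1.003 ± 0.22, adjusted p = 0.0192) and was higher after 6 sessions than after 1 (0.91 ± 0.22, adjusted p = 0.0313). After 6 sessions Gemin2, the partner of SMN that holds the Sm proteins, fell by 1.40 on the log2 scale (SE 0.21, adjusted p = 0.00206) and Wdr77, a cofactor of the methyltransferase that modifies Sm proteins, by 0.97 (SE 0.16, adjusted p = 0.00335). Smn1 itself was not called (-0.45 ± 0.26 and 0.14 ± 0.26). Lsm10, a ring protein of the U7 snRNP, which processes histone messages, was lower after 1 session (-1.31 ± 0.25, adjusted p = 0.0104) and after 6 (-1.62 ± 0.25, adjusted p = 0.00212). These comparisons share the control arrays.

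Among the helicases and regulators of the other lists, Ddx46, the helicase that works beside SF3b, rose by 2.35 ± 0.33 on the log2 scale after 1 session (limma adjusted p = 0.00222) and by 1.14 ± 0.33 after 6 (adjusted p = 0.0322). Dhx38, the helicase also named PRP16, rose after 1 session (1.62 ± 0.22, adjusted p = 0.00208) and stood at 0.06 ± 0.22 after 6 (adjusted p = 0.864), and its difference between 6 and 1 sessions was called (-1.55 ± 0.22, adjusted p = 0.00967). The paraspeckle proteins Sfpq (1.72 ± 0.31, adjusted p = 0.00942) and Pspc1 (1.58 ± 0.36, adjusted p = 0.0239) rose after 1 session. After 6 sessions the list of the Prp19 complex and catalytic step had 6 of 26 genes higher and 1 lower, and that of 3′ splice site recognition 3 of 11 higher and 1 lower. Among exon junction and SR-related proteins 1 of 20 was higher and 5 were lower. Other RNA-binding regulators had 4 of 39 higher and 5 lower, and LSm proteins 0 of 9 higher and 3 lower. Among kinases of SR proteins 0 of 7 were higher and 1 was lower. Over all genes tested, 9.36% were higher and 14.9% lower after 6 sessions. Ctnnbl1, a partner of the Prp19 complex, rose by 1.72 ± 0.25 (adjusted p = 0.00176), while Prpf19 itself was lower. Srrm2, a scaffold of nuclear speckles, rose by 1.86 ± 0.32 (adjusted p = 0.00342), and U2af2, which binds the polypyrimidine tract, fell by 1.11 (SE 0.21, adjusted p = 0.00529). The SR protein kinase gene Clk4 was called lower after 6 sessions (-0.95 ± 0.18, adjusted p = 0.00566) and not after 1 (-0.01 ± 0.18). Its difference between them was called (-0.93 ± 0.18, adjusted p = 0.0162). The list counts after 6 sessions depended on the scaling. Median centring called 1 gene higher and 0 lower in the Prp19 list and in that of 3′ splice site recognition (6.1% of all genes called). The counts were 2 and 1 for exon junction and SR-related proteins and 1 and 0 for other regulators. They were 0 and 0 for LSm proteins and for kinases.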

How the data were processed

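The deposited table holds 1 linear intensity per probe set and array, made by the authors. Labelling and hybridization were done by Affymetrix per the labels' protocols, and the design text names GeneTraffic for analysis. Array trimmed means (lowest and highest 2% out) were equal, so arrays had been scaled as a whole. How probes were summarised and background was handled is not given in the sources used here. Scaling to a trimmed mean lets array medians differ, which shifts fold changes of all genes together.

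Of 31099 probe sets, 20826 had 1 gene symbol in the platform annotation, 436 several and 9780 none, and 57 were array controls. Values were taken as log2(value + 16), a scale that understates changes of dim probe sets. Probe sets in the lowest 30% of mean level were dropped, and the brightest probe set stood for each gene. The test was two-sided, from lmFit and eBayes (with a trend) of limma 3.58.1 under R 4.3.3, in 1 fit of all 9 arrays with 6 residual degrees of freedom. P-values were adjusted over all 11287 genes. Errors are SE of the fit. The number of arrays limits the precision. The script was tested on simulated data.

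Same-numbered control and 1XIMO arrays deviated together (correlations 0.508, 0.360 and 0.250), while different-numbered ones gave -0.422 to 0.275. The numbers, taken from the sample titles, may thus pair those 2 groups. The main fit did not use them, and they entered only as the replicate block, an alternative. Named members were those called without overlap between the groups, up to 10 each way per comparison, and the 2 of each class with the highest mean level. From the wider lists up to 4 genes per comparison and direction with the smallest adjusted p were named. Smn1, Snrpd1's second probe set, members called only without 6XIMO replicate 1, members low on that array, the other members named as not called and the probe sets with wide spreads were picked once their values had been seen. The members and lists were chosen with earlier results of these data known. The alternatives were other filters, pseudocounts (1, 64), thresholds, normalizations, array weights, probe set choices, a replicate block, fits of 2 groups and leaving out each array. Testing every probe set on its own and median centring without 6XIMO replicate 1 were chosen after seeing the data. Detection calls and raw probe values were not used here.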

Additional observations from a re-analysis of the deposited data

Results flagged for a closer look

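The tested difference between the responses to 6 sessions and to 1 passed the threshold in 4 members (limma, adjusted p under 0.05). The log2 difference of 6XIMO from 1XIMO was -1.11 for Hnrnph3, -1.003 for Prpf40b, -0.90 for Srsf10 and -0.84 for Hnrnpdl. In all 4 genes each 6XIMO array lay below each 1XIMO array. The array controls, which enter no comparison of genes, also stood apart. The lowest actin 3′/5′ ratio among the 6XIMO arrays was 6.11, against at most 2.15 on the control arrays, and the part of this in the differences was not tested.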

How the results depend on the processing

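The counts of members called in 1XIMO against control, 6XIMO against control and 6XIMO against 1XIMO (3, 11 and 4) moved with the setting, as did the share of all genes called. They were 23, 34 and 27 with array weights (39.9, 58.1 and 49.5% of all genes), 14, 21 and 15 with quantile normalization without 6XIMO replicate 1 (30.2, 35.1 and 22.1%), and 12, 2 and 0 when only the 2 groups compared were fitted (28.4, 13.5 and 0.575%, with 22, 15 and 11 members at an unadjusted p under 0.05). Median centring gave 0, 0 and 0 (1.99, 6.1 and 0.532%), with 2, 3 and 2 members at an unadjusted p under 0.05. An adjusted p threshold of 0.01 gave 1, 2 and 0 (3.25, 10.2 and 0.514%). One of 0.1 gave 5, 17 and 10 (14, 33.7 and 18%). Without a filter 7 members were called in 6XIMO against control (18%). Leaving out 1 array gave 1 to 14, 3 to 28 and 0 to 15 calls (3.2 to 30.2, 12.2 to 48.3 and 0 to 32.4%). A replicate block gave 5, 12 and 5 calls (8.66, 24.3 and 8.35%). With only the 2 groups compared, an alternative chosen after seeing the data, that block gave 19, 0 and 0 (38.3, 4.89 and 0%). There 24, 14 and 9 members had an unadjusted p under 0.05. The correlations of same-numbered arrays were 0.142, 0.060 and 0.158 between control and 6XIMO and 0.150, 0.078 and 0.088 between 1XIMO and 6XIMO. Different-numbered arrays of these groups gave -0.197 to 0.212. The same-numbered values were all positive but small, and they cannot decide whether the numbers also pair the 6XIMO arrays. The cause was not tested.

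Of the log2 fold changes of named members under these settings, 271 of 288 kept their side of the threshold in 1XIMO against control, 300 of 432 in 6XIMO against control and 273 of 336 in 6XIMO against 1XIMO. In the same order 16, 115 and 45 lost the call, 0, 17 and 18 gained one, and 1 called value reversed, that of Snrpd1 after 1XIMO on its second brightest probe set (-0.15). Values with no call on either side were counted as kept even where their sign changed, as for Srsf2 after 1XIMO (-0.15 to 0.45). The kept counts thus include members never called, and do not measure how stable the calls were. Over 24 alternatives the calls after 1 session were lost in 1 (Prpf19), 5 (Prpf4) and 10 (Snrpd1, besides its reversal). Those after 6 sessions were lost in 2 (Prpf19 and Prpf40b) to 17 (Hnrnpul1 and Prpf18). Calls between 6 and 1 sessions were lost in 7 (Hnrnph3) to 15 (Srsf10). The depth of arrays is set by their number, 3 per group, and by the signal of dim probe sets such as those of Snrpn and Srsf7.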
